A study of Mus musculus with 27 samples.

Results

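In switching B cells, more junctions were aligned to a short stretch of mouse chromosome 14 than to any other 10 kb window outside chromosome 12. These junctions are described here across 9 clones. The window spans chr14:32420000-32429999 (mm9) and was selected on its junction count over all 9 clones, so that count is a description and neither it nor any share made from it is tested. It held 1084 of 193201 junctions, which is 2.76% of the 39296 junctions on chromosomes other than 12 and 32.8% of the 3306 on chromosome 14. Members were found in 8 of the 9 clones and in 24 of the 27 libraries, with 9 to 97 per library in those 24. The remaining 3 libraries, all of Ligase4-/- clone 1, held 0. Of 197 plus-strand reads that ran at least 6 bases past the stretch, 185 continued into repeats like those of antibody switch regions. Of 25 such minus-strand reads, 24 did so, and 0 reads on either strand continued into the mm9 bases. In every share and comparison, the chromosome of a junction is therefore that of its alignment only. Where the stretch lay in the DNA of these cells was not tested.

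The cells were CH12F3, a mouse B-cell line that switches its antibody class from IgM to IgA when stimulated, and every group received interleukin-4, an antibody against CD40 and TGFβ for 72 h. Junctions were read by LAM-HTGTS, a translocation sequencing method in which a primer at the Iμ promoter, the bait, is extended into whatever DNA, the prey, has been joined to it. The groups were Ligase4-/- (2 clones), XLF-/-PAXX-/- (2 clones), XLF-/- (2 clones), PAXX-/- (2 clones) and WT, a lone parental line, with 3 libraries of each clone. Both XLF-/-PAXX-/- clones were derived from the same PAXX-/- clone, and 1 Ligase4-/- clone came from elsewhere while the other was derived from the parental line; the labels do not say which number is which.

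During class switching, activation-induced deaminase leads to breaks in the repetitive switch regions that lie before the antibody constant genes, and Sμ is joined to a partner such as Sα with loss of the DNA between them. Classical non-homologous end joining seals most such breaks. DNA ligase 4 is its ligase, and XLF and PAXX help to hold and align the ends. When this pathway is impaired, alternative end joining takes over and more junctions use microhomology, short bases shared by both ends. A direct junction has neither shared nor extra bases, and an insertion has bases between the bait and prey alignments that belong to neither.

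All 1084 junctions lay in chr14:32427221-32427536, a span of 316 bases, and none elsewhere in the 10 kb. Within 50 kb to either side of the window there were 7 further junctions. The reads matched a segment of 315 bases, chr14:32427222-32427536, in which the most frequent base of the reads equalled the mm9 base at 315 of 315 positions. Each position was covered by 143 to 470 reads, and the lowest agreement at any position was 98.1%. The 300 leading bases are printed because they carry nearly all members, with AGCT, a motif common in switch repeats, in capitals.

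segment, plus strand, chr14:32427222-32427521: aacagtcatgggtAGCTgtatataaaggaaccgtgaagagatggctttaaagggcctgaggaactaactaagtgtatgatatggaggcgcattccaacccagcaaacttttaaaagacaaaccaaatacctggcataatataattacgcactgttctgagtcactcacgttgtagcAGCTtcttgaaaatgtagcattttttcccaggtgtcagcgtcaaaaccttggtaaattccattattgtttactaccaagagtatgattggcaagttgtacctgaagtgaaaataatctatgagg

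AGCT occurred at 2 places in the segment, and 77.6% of 32851 mouse promoters of 300 bases (RefSeq, GRCm38.p6) hold it. The run AGCTGAGCTG, the most frequent 10 bases of the read sequence just left of the segment, was searched on both strands with overlapping matches counted. It occurred at 0 places in the segment and in 0.283% of those promoters; it contains AGCT. The GC content of the segment was 38.4%. These letter matches describe the sequence and say nothing of binding or breakage.

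At both ends of the segment the reads left the mm9 sequence. The 4 lines below set mm9 beside the most frequent bases of the reads at each edge, with capitals for the bases outside the segment. The reads carried switch-type repeats containing GAGCTG where mm9 has other bases.

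left edge, mm9: TTCAACAGTCaacagtcatg
left edge, reads: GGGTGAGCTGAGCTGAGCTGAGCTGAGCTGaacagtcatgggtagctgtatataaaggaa
right edge, mm9: attctttctaAACGTCTTCT
right edge, reads: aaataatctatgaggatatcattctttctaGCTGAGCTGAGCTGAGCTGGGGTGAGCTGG

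Of the plus-strand reads aligned to the last base of the segment, 197 went on for at least 6 bases, and 185 of these (93.9%) continued with GCTGAG while 0 continued with the mm9 bases AACGTC. Of 25 minus-strand reads that ran past the first base, 24 (96.0%) continued into GAGCTG, written on the plus strand, and 0 into the mm9 bases ACAGTC. The repeats therefore adjoined the segment on both sides in nearly all reads long enough to show it. At the left edge mm9 repeats the same 7 bases on both sides of the boundary, whereas the reads hold them only within the segment. The printed flanks contained AGCTGAGCTG at 4 places on the left and 2 on the right.

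The right-hand flank was seen in each of the 8 clones with members. GCTGAG followed in 21 of 23 reads of Ligase4-/- clone 2, in 32 of 34 and 42 of 45 of XLF-/-PAXX-/- clones 1 and 2, in 28 of 31 and 21 of 22 of XLF-/- clones 1 and 2, in 17 of 17 and 20 of 21 of PAXX-/- clones 1 and 2, and in 4 of 4 of WT. No clone had a different main base at any of the 315 positions, and differing bases made up 0.155% to 0.576% of aligned bases per clone. The main bases of the segment and the flank that followed it were thus the same in WT as in the 7 mutant clones with members.

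Junctions aligned elsewhere also ran into the segment. Among the junctions outside the window, 184 reads held at least 20 bases in a row of the segment, and 173 of these were aligned within 10 kb of the bait. Of the 184, 152 were deletional Sμ junctions, which lie beyond the bait in the direction of Sα and on the strand that deletion gives, and the segment ran in the same direction in 152 of 152. In 130 of them the match began at the first base of the segment, and GAGCTG stood directly before it in 123 of those 130. Their Sμ alignments ended at 42 positions of chr12:114662528-114664404, most often at 114662862 (33 reads) and 114662587 (32 reads), while all bait alignments lay in chr12:114664780-114664913. Individual reads therefore passed from the bait through Sμ sequence and into the chromosome 14 segment. Only 5 of the 184 were aligned at Sα and 4 on other chromosomes.

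Such Sμ reads were found in the same 8 clones and not in Ligase4-/- clone 1. Their share of deletional Sμ junctions was 0.320% in Ligase4-/- clone 2 (13 of 4066), 0.260% and 0.200% in XLF-/-PAXX-/- clones 1 and 2, 0.418% and 0.284% in XLF-/- clones 1 and 2, 0.900% (42 of 4667) and 1.39% (41 of 2943) in PAXX-/- clones 1 and 2, and 0.265% in WT (6 of 2262). Exact Clopper-Pearson 95% intervals were 0.649% to 1.21% and 1.00% to 1.89% in the PAXX-/- clones and 0.0974% to 0.576% in WT, and cover counting error only. Ligase4-/- clone 1 had 0 of 5852, which allows a share of up to 0.0513%. A read had to be long enough to pass Sμ and hold 20 bases of the segment. Median read length was 249 and 243 bases in PAXX-/- clones 1 and 2, 221 in WT and 205 to 238 in the other clones. Its part in these shares was not tested, and PAXX-/- and WT lay in different sequencing runs.

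Junctions were spread over the segment, with a pile-up at each edge. On the plus strand, 118 of 963 junctions (12.3%) lay at base 1, from 24 libraries and 8 clones. On the minus strand, 23 of 121 junctions (19.01%) lay at base 315, from 14 libraries. The next most frequent position was base 14, with 20 plus-strand junctions. Apart from the edges, 843 plus-strand junctions had a median at base 117 and quartiles at 44.5 and 194. The highest plus-strand position was base 290 and the lowest minus-strand position base 32, and the shortest prey alignment in the window was 25 bases. At 142 positions there were at least 3 junctions from at least 2 libraries, and these positions held 849 junctions.

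**Figure D1:**
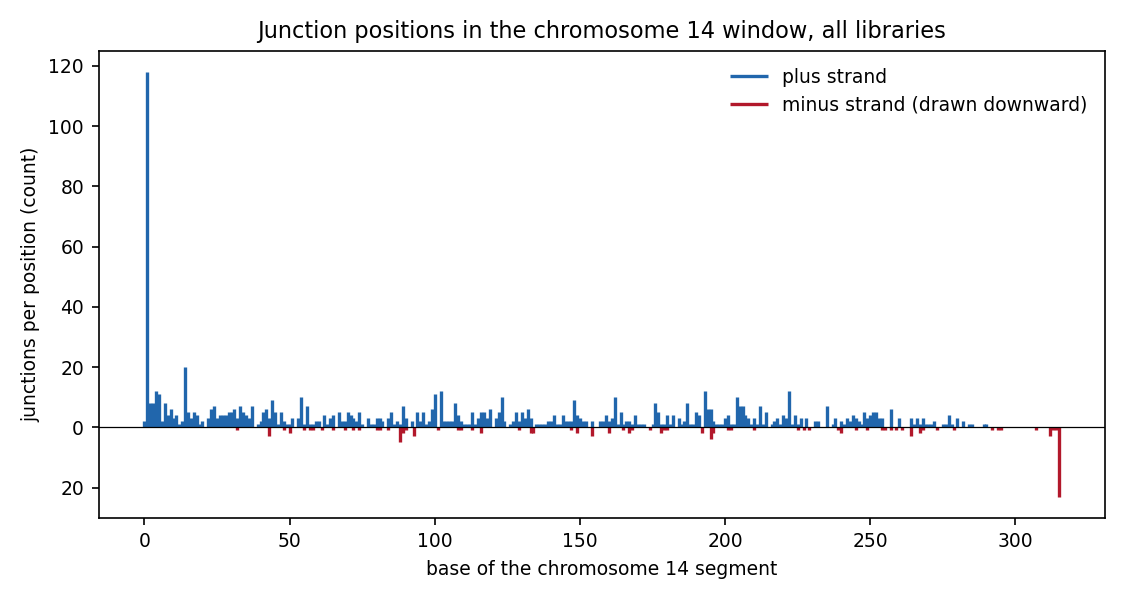
Junctions per base of the segment in all libraries, with plus-strand counts drawn upward and minus-strand counts downward (x axis, base of the segment; y axis, count). The columns at base 1 (118) and base 315 (23) stand above the rest, and the other junctions are spread between them.

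The edge pile-ups differed in structure from the rest of the segment. Counting the 2 junctions at the base before the segment, 143 junctions lay at the edges, and 85.3% of them had unaligned bases at the joint, against 18.3% of the 941 inside. Where a base 1 junction had at least 6 unaligned bases, these ended in GAGCTG in 66 of 72 cases and in the mm9 bases in 0. At base 315 the repeat was present in 12 of 13 cases. The insertions at the edges were thus mostly the adjoining switch-type repeat, which the aligner had assigned to neither side. An edge joint from PAXX-/- clone 1 shows this, with its 13 unaligned bases in capitals between 20 bases of bait and 20 of prey. The direct joint, from WT at base 28, has no extra base, and the microhomology joint, from XLF-/- clone 1 at base 130, has its 3 shared bases in capitals.

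edge joint: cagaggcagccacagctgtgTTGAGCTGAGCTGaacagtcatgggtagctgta
direct joint: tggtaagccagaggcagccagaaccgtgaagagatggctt
microhomology joint: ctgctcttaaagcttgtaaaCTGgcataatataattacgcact

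Strand was strongly unequal in every clone with members. The plus strand held 88.7% of junctions in Ligase4-/- clone 2, 87.1% and 88.7% in XLF-/-PAXX-/- clones 1 and 2, 85.3% and 90.9% in XLF-/- clones 1 and 2, 91.8% and 91.3% in PAXX-/- clones 1 and 2, and 93.9% in WT (31 of 33). On the other chromosomes outside the window the plus strand held 48.4% to 51.1% per clone. The within-clone difference averaged 39.7 percentage points ± 2.69 (SD, n = 8 clones), positive in 8 of 8, with an exact two-sided sign-flip p of 0.00781 over 256 assignments, the smallest these allow, and an adjusted p of 0.0430. Without any whole clone with members but PAXX-/- clone 1 the call was lost (39.1 to 40.2 points, adjusted p 0.0547 to 0.0859). The adjustment took in the window share tests, whose p-values are left out, so these adjusted p-values depend partly on them. The 8 clones are of the same cell line and hold the same segment, so their signs are not independent. This p-value covers only how far the skew recurred over these clones at this locus. Sα junctions were also skewed, with 82.8% to 96.9% per clone on their main strand, the minus strand, which deletion gives there. The main-strand share was higher in the window than at Sα in the 5 clones with members that lacked ligase 4 or XLF. It was lower in both PAXX-/- clones and in WT, so the mean difference joins opposite signs. The main-strand share in the window minus that at Sα averaged 0.319 points ± 3.94 (SD, n = 8 clones, range -5.44 to 4.31; exact sign-flip p = 0.820, adjusted p = 0.820).

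The number of members per library was small in WT and absent in Ligase4-/- clone 1. Libraries 1 to 3 of a clone, numbered by name only, held 0, 0 and 0 members in Ligase4-/- clone 1 and 49, 57 and 53 in Ligase4-/- clone 2. They held 61, 56 and 92 in XLF-/-PAXX-/- clone 1 and 37, 70 and 97 in XLF-/-PAXX-/- clone 2. The XLF-/- libraries held 60, 47 and 49 in clone 1 and 43, 36 and 31 in clone 2. The PAXX-/- libraries had 28, 42 and 40 in clone 1 and 28, 34 and 41 in clone 2, and the WT libraries 12, 9 and 12. Total junctions per library ranged from 3610 to 14524 over the series, so shares are given next.

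As a share of junctions on chromosomes other than 12, the window took 3.22% ± 1.15 in Ligase4-/- clone 2, 4.20% ± 1.03 and 5.72% ± 0.287 in XLF-/-PAXX-/- clones 1 and 2, 5.83% ± 1.83 and 2.71% ± 0.810 in XLF-/- clones 1 and 2, 3.48% ± 1.25 and 2.92% ± 0.921 in PAXX-/- clones 1 and 2, and 1.57% ± 0.251 in WT (SD, n = 3 libraries each). Every library of these 7 mutant clones lay above all 3 WT libraries. Ligase4-/- clone 1 had 0 of 8831, which allows up to 0.0340%, and per library 0 of 3226, 2863 and 2742, which allow up to 0.0930%, 0.105% and 0.109%. That clone was the most deeply covered, with 38298 junctions, and its Sα count of 15467 was also above that of any other clone.

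**Figure D2:**
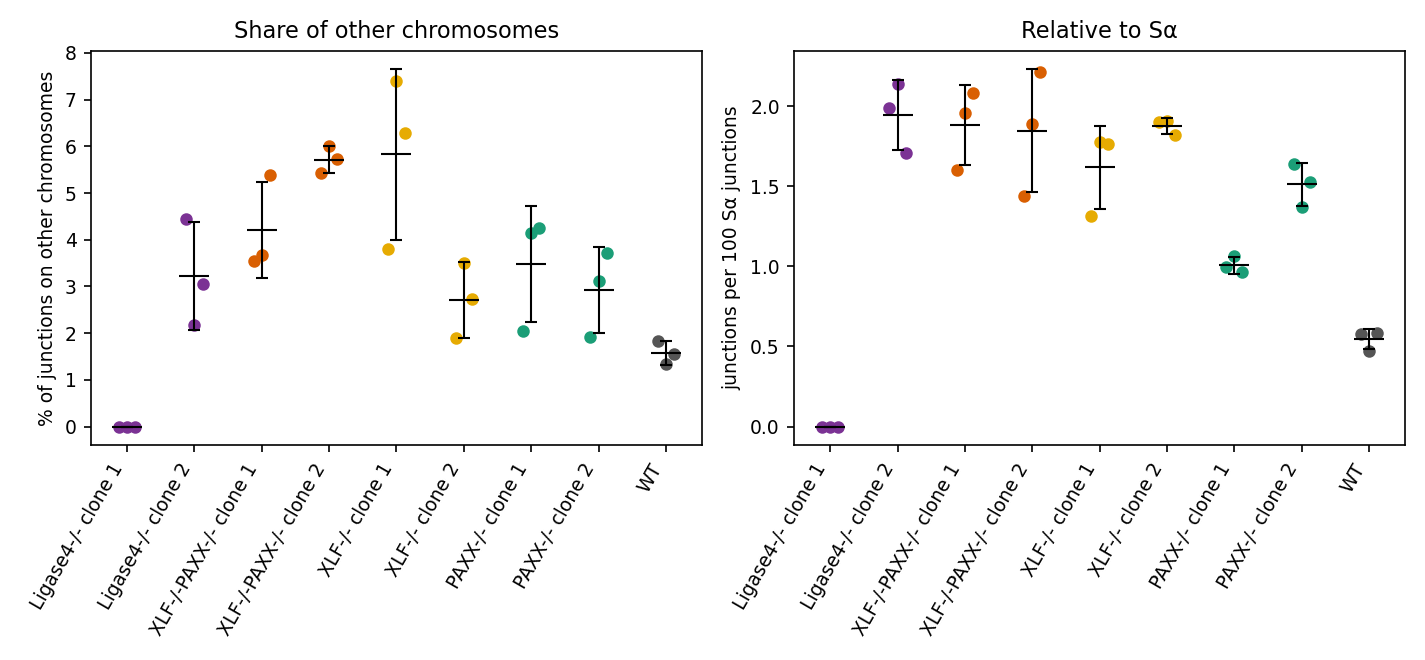
Window junctions per library (points) with the mean and SD over 3 libraries of each clone (bars), as a percentage of junctions on chromosomes other than 12 (left) and per 100 Sα junctions (right). Ligase4-/- clone 1 is at 0 in both panels, and all other mutant libraries are above the 3 WT libraries.

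Between genotypes the share is likewise a description, because the mutant clones supplied most of the junctions on which the window was selected. Averaged over libraries, XLF-/-PAXX-/- took 4.96% ± 1.07 (SD, n = 6), against 1.57% ± 0.251 in WT (SD, n = 3), a difference of 3.38 percentage points with all 6 libraries above WT. Clone 2 alone exceeded WT by 4.14 points and clone 1 alone by 2.63. XLF-/- took 4.27% ± 2.13 (SD, n = 6), which was 2.70 points above WT, and PAXX-/- 3.20% ± 1.03 (SD, n = 6), which was 1.63 points above. Ligase4-/- took 1.61% ± 1.91 (SD, n = 6), 0.0381 points above WT, with 3 libraries above and 3 below all WT libraries. Genotype accounted for 58.6% of the sum of squares between the 9 clones. With so few clones per genotype, labels given at random would also take a large part of it. The Ligase4-/- clones stood far apart.

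Relative to other denominators the order of clones changed while WT stayed lowest among clones with members. Per 100 Sα junctions the window had 1.94 ± 0.218 in Ligase4-/- clone 2, 1.88 ± 0.249 and 1.85 ± 0.386 in XLF-/-PAXX-/- clones 1 and 2, 1.62 ± 0.261 and 1.88 ± 0.0482 in XLF-/- clones 1 and 2, 1.01 ± 0.0510 and 1.51 ± 0.134 in PAXX-/- clones 1 and 2, and 0.545 ± 0.0621 in WT (SD, n = 3 libraries each). The first 5 of these clones lay within their spread of each other, and PAXX-/- clone 1 lay below them. On this scale XLF-/- exceeded WT by 1.20 and PAXX-/- exceeded WT by 0.714. Per 100 deletional Sμ junctions the clone means were 3.92 in Ligase4-/- clone 2, 4.17 and 3.94 in XLF-/-PAXX-/- clones 1 and 2, 3.59 and 3.95 in XLF-/- clones 1 and 2, 2.36 and 3.51 in PAXX-/- clones 1 and 2, and 1.45 in WT.

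Read names showed 8 sequencing runs. WT had a run of its own, as did XLF-/-PAXX-/-, and the Ligase4-/- libraries lay in 4 runs without other genotypes, so in any comparison with WT the run and the genotype cannot be told apart. XLF-/- and PAXX-/- shared 2 runs and could be compared within them. The window share was 0.875 points higher in XLF-/- in the run with 2 libraries of each (2.85% against 1.98%) and 1.17 points higher in the run with 4 of each (4.98% against 3.81%). Stratified by run, the difference was 1.07 points, and it was 0.227 points as a share of junctions outside the bait window and 0.488 per 100 Sα junctions. As a share of other chromosomes it turned to -0.487 without XLF-/- clone 1 and was 2.63 without XLF-/- clone 2.

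The joints themselves fell into 98 direct, 692 with microhomology and 294 with insertion. Direct joints made up 6.29% of members in Ligase4-/- clone 2, 5.74% and 8.33% in XLF-/-PAXX-/- clones 1 and 2, 5.13% and 3.64% in XLF-/- clones 1 and 2, 17.3% and 18.4% in PAXX-/- clones 1 and 2, and 27.3% in WT (9 of 33, exact 95% interval 13.3% to 45.5%). The 5 clones that lacked ligase 4 or XLF were thus all below 9%, and the PAXX-/- clones and WT all above 17%. Microhomology was present in 68.6% of members in Ligase4-/- clone 2, in 72.7% and 68.6% in XLF-/-PAXX-/- clones 1 and 2, in 73.1% and 76.4% in XLF-/- clones 1 and 2, in 44 of 110 and 37 of 103 members of PAXX-/- clones 1 and 2, and in 36.4% in WT. Insertions made up 25.2% of members in Ligase4-/- clone 2, 20.0% to 23.0% in the XLF-/-PAXX-/- and XLF-/- clones, 42.7% and 45.6% in PAXX-/- clones 1 and 2, and 36.4% in WT.

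Tests over the 8 clones with members were added after seeing the data and adjusted over 11 added tests. Genotype accounted for 99.1% of the sum of squares between clones for the insertion share (exact permutation p = 0.00714 over 420 splits, adjusted p = 0.0262). It accounted for 99.0% for the direct share (exact p = 0.0190, adjusted p = 0.0516) and for 99.0% for the microhomology share (exact p = 0.0429, adjusted p = 0.0589), which missed the adjusted threshold of 0.05. The insertion share no longer passed without the edge positions (96.6%, exact p = 0.0786, adjusted p = 0.108), without gaps over 20 bases (96.0%, adjusted p = 0.0917), without WT library 3 (99.2%, adjusted p = 0.0733) or without XLF-/- clone 1 library 1 (95.6%, adjusted p = 0.0636), nor without any 1 of the 8 clones as a whole (99.0% to 99.5%, adjusted p 0.0524 to 0.105). Ligase4-/- and WT each had 1 clone with members in these tests.

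Within the shared runs, XLF-/- and PAXX-/- libraries differed in structure without overlap. The direct share averaged 6.16% in XLF-/- and 17.9% in PAXX-/- in the run with 2 libraries of each, and 3.46% in XLF-/- and 17.7% in PAXX-/- in the run with 4 of each. Stratified by run the direct share differed by -13.4 points, lower in XLF-/- (exact two-sided permutation p = 0.00476 over 420 splits, adjusted p = 0.0262), with XLF-/- libraries at 0% to 10.0% and PAXX-/- libraries at 14.3% to 21.4%. The microhomology share was higher in XLF-/- by 36.0 points (exact p = 0.00476, adjusted p = 0.0262), with XLF-/- libraries at 66.0% to 86.1% and PAXX-/- libraries at 26.8% to 46.4%. The differences in each run alone were 30.4 and 38.8 points for microhomology. Both calls were lost without any 1 of the 4 clones as a whole (-14.2 to -12.5 points for direct joints and 34.0 to 38.0 points for microhomology, adjusted p 0.0815 to 0.105). Libraries of the same clone are not independent of each other in this test.

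**Figure D3:**
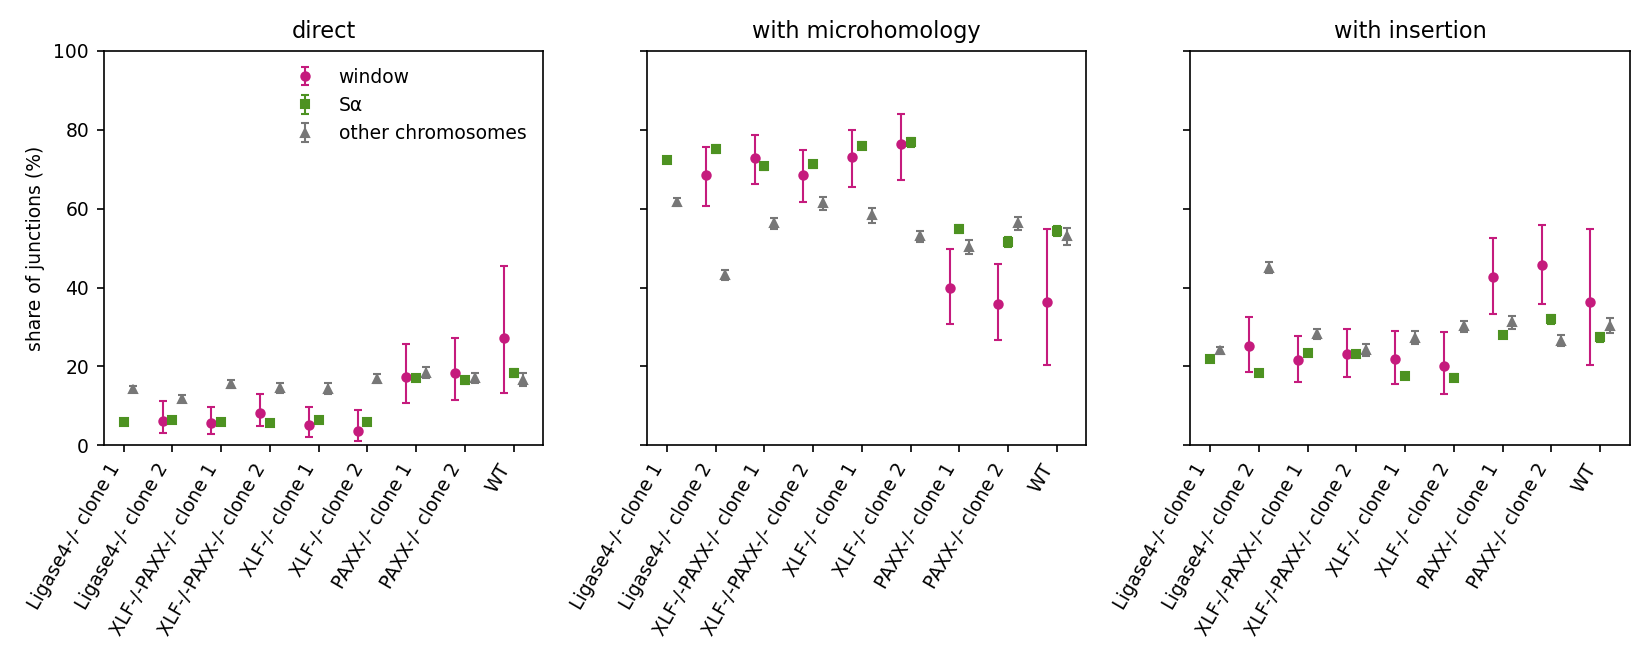
Shares of direct junctions, junctions with microhomology and junctions with insertion (%, y axis) per clone in the window (circles), at Sα (squares) and on other chromosomes outside the window (triangles), with exact 95% intervals for counting error. In the window and at Sα the PAXX-/- clones and WT have more direct joints than the other clones, and on other chromosomes the clones lie between 11.8% and 18.5% direct.

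Shared bases were short in all groups. Over all members the most frequent overlap was 2 bases (215 junctions), 90.3% of the 692 microhomologies were 1 to 4 bases long, 7 were longer than 6 and the longest was 14. Mean length was 2.88 bases in Ligase4-/- clone 2, 2.62 and 2.77 in XLF-/-PAXX-/- clones 1 and 2, 3.14 and 2.75 in XLF-/- clones 1 and 2, 1.91 and 2.16 in PAXX-/- clones 1 and 2, and 2.25 in WT, with SDs of 0.936 to 1.79 over junctions. Microhomologies of 3 or more bases made up 49.3% to 57.0% of microhomologies in the first 5 clones, 20.5% and 27.03% in PAXX-/-, and 41.7% in WT (12 microhomologies in all).

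**Figure D4:**
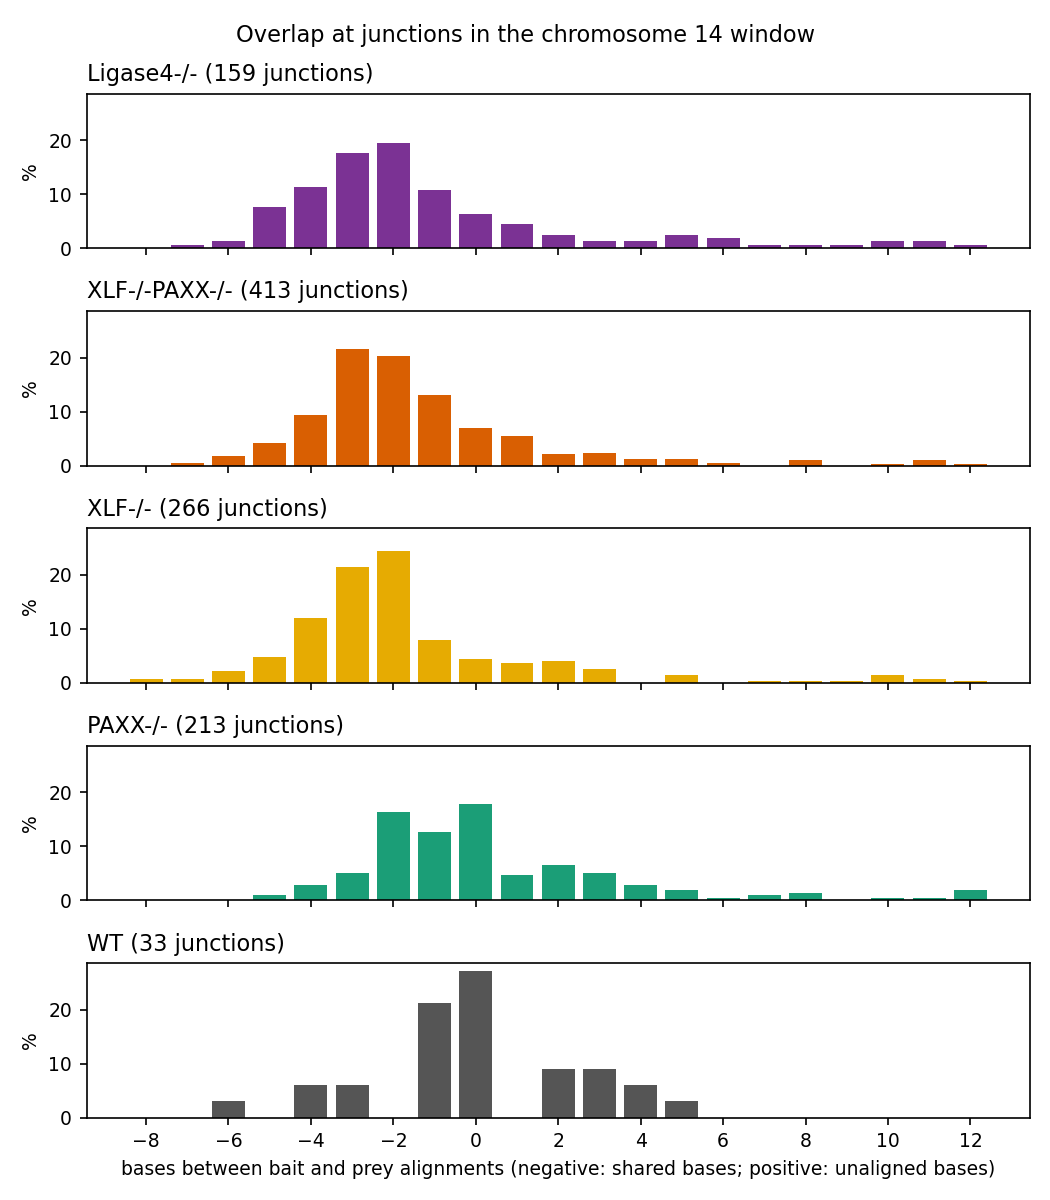
Bases between the bait and prey alignments at window junctions, by genotype (x axis, negative for shared bases and positive for unaligned bases, shown from -8 to 12; y axis, percentage of the genotype's window junctions). The column at 0, direct joints, holds 17.8% in PAXX-/- and 27.3% in WT and between 4.51% and 7.02% in the other genotypes, whose columns are highest at 2 or 3 shared bases. Ligase4-/- here is clone 2 alone.

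Against other chromosomes in the same clone, the window had fewer long gaps. Gaps over 20 unaligned bases made up 4.10% of window junctions and 21.7% of those on other chromosomes, as means over 8 clones, a difference of -17.6 points ± 8.48 (SD; lower in 8 of 8 clones; exact two-sided sign-flip p = 0.00781, adjusted p = 0.0430). This call was lost without the same whole clones as that for the plus strand (-18.9 to -15.1 points, adjusted p 0.0547 to 0.0859). A low share of long gaps was not particular to the window. At Sα it was 1.34% to 4.11% per clone. In the window it ran from 0.490% in XLF-/-PAXX-/- clone 2 to 10.9% in PAXX-/- clone 1, and the difference from Sα was not tested. The aligned bait was longer by 4.15 bases ± 4.69 (65.1 bases in the window, 60.9 on other chromosomes; longer in 7 of 8 clones; exact p = 0.0156, adjusted p = 0.0430), and without the edge positions this no longer passed (3.96 bases, adjusted p = 0.0748). The bait length call was also lost without Ligase4-/- clone 2 library 3, XLF-/-PAXX-/- clone 1 library 3, XLF-/-PAXX-/- clone 2 library 1 or 2, PAXX-/- clone 1 library 1 or any WT library (3.90 to 4.17 bases, adjusted p 0.0573 to 0.103), and without any whole clone with members but PAXX-/- clone 1 (3.01 to 4.66 bases, adjusted p 0.0729 to 0.0982). The direct share differed by -4.14 points ± 7.58 (exact p = 0.180, adjusted p = 0.282) and the microhomology share by 5.00 points ± 18.3 (exact p = 0.445, adjusted p = 0.544). The insertion share differed by -0.866 points ± 12.5 (exact p = 0.836, adjusted p = 0.920), and the clones pointed both ways in all 3. With long gaps left out everywhere, the insertion share was higher in the window by 15.8 points (exact p = 0.00781, adjusted p = 0.0286), and the microhomology share differed by -7.88 points (exact p = 0.234). With long gaps kept but the edge positions left out, the signs were opposite. The insertion share then differed by -10.0 points (exact p = 0.0156, adjusted p = 0.0430) and the microhomology share by 13.2 points (exact p = 0.0703).

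At Sα the direct share also fell into a low and a high range by clone. The direct share at Sα was 5.72% to 6.49% in the clones lacking ligase 4 or XLF, 17.2% and 16.5% in PAXX-/- clones 1 and 2, and 18.4% in WT. The window minus Sα difference in direct share averaged 1.19 points ± 3.51 (range -2.39 to 8.92 over 8 clones; exact sign-flip p = 0.445, adjusted p = 0.490). Microhomology differed by -7.34 points ± 7.71 (lower in 7 of 8 clones; exact p = 0.0234, adjusted p = 0.0516) and insertion by 6.15 points ± 6.07 (higher in 6 of 8; exact p = 0.0313, adjusted p = 0.0561). With identical junctions collapsed both passed, at -7.11 points for microhomology and 6.18 points for insertion (exact p = 0.0234, adjusted p = 0.0437 each). Without the edge positions these became 0.895 (exact p = 0.703) and -3.03 points (exact p = 0.0234, adjusted p = 0.0645).

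Plus-strand junctions lay closer to the left edge in PAXX-/- and WT. Beyond base 1, the median position was base 128 in Ligase4-/- clone 2 (124 junctions), 123 and 128 in XLF-/-PAXX-/- clones 1 and 2, 138 and 118 in XLF-/- clones 1 and 2, 66.5 and 82 in PAXX-/- clones 1 and 2 (74 and 73 junctions), and 34 in WT (24 junctions). Genotype accounted for 96.5% of the sum of squares between these medians (exact permutation p = 0.0357 over 420 splits, adjusted p = 0.0561), which missed the adjusted threshold. Base 1 or the base before it took 10.7% of members in Ligase4-/- clone 2, 7.66% and 7.84% in XLF-/-PAXX-/- clones 1 and 2, 6.41% and 5.45% in XLF-/- clones 1 and 2, 24.5% and 20.4% in PAXX-/- clones 1 and 2, and 21.2% in WT.

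**Figure D5:**
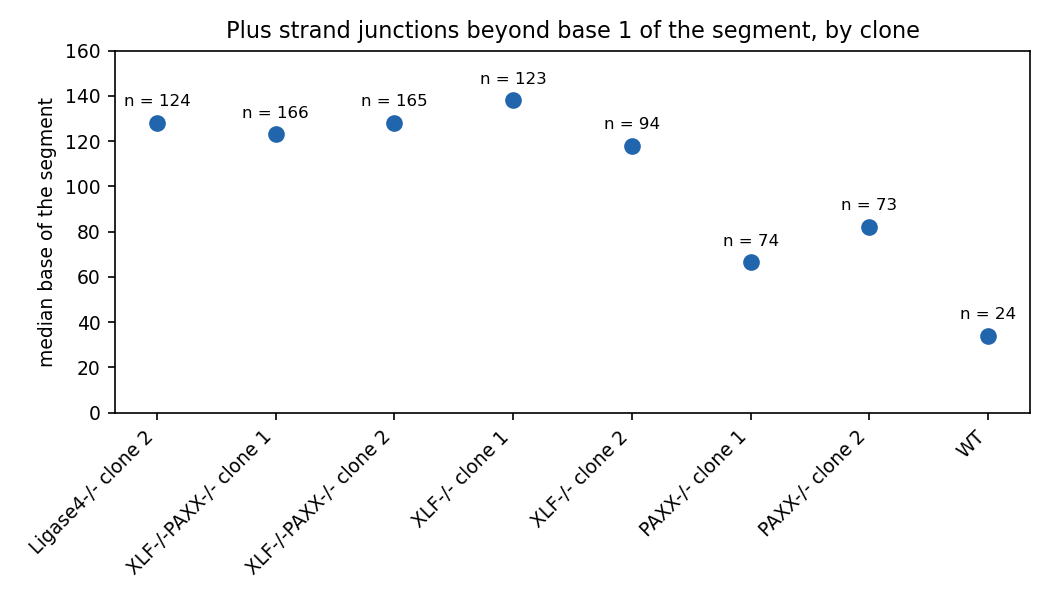
Median position of plus-strand junctions beyond base 1 (y axis, base of the segment; n, number of junctions) in the 8 clones with members. The PAXX-/- clones and WT lie at base 82 or below, and the others at base 118 or above.

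The window differed from the next densest windows in the span from its first to its last junction. A strand skew and crowding at a lone position were not particular to it, and its own most frequent position held 10.9% of members. The window with the next highest count, on chromosome 8, held 293 junctions over 7884 bases at 276 positions, and 43.3% were on the plus strand. The third, on chromosome 1, held 208 junctions, of which 190 (91.3%) lay at a lone position and 100% had insertions. Its junctions were 100% on the plus strand, against 88.8% in the chromosome 14 window. The 5 next windows, with 106 to 293 junctions each, spanned 3830 to 9801 bases against 316 here. Ligase4-/- clone 1, with 0 in the chromosome 14 window, contributed 43 to 164 junctions to each of those 5.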

How the data were processed

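Junctions of 27 samples, 3 libraries of each of 9 CH12F3 clones, were used. Bowtie2 and the build mm9 are named in the submitters' processing notes, and what else the authors did is not given in the sources used here. In the deposited tables each line is a junction, with other values such as genome positions, strand and read positions of the bait and prey alignments. Each table pools the libraries of its clone, which a column of names separates without giving replicate numbers. The number of value columns left unused for lack of a sample was 0.

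The window and the lists were chosen with earlier results of these data known. Overlap was computed from the read positions, with more than 20 unaligned bases called a long gap. Sα junctions were those within 10 kb of the centre of the densest 1 kb bin on chromosome 12 at least 50 kb from the bait. Reads were compared with the segment by runs of 20 bases, using upper-case bases of the reads only at the edges. Named positions were those with at least 3 junctions from at least 2 libraries, and the 5 next densest windows.

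Genotypes were compared by exact permutation of the sum of squares between clones, with 1 value per clone. For joint structure and median position this value came from the pooled junctions of the clone. XLF-/- and PAXX-/- were compared by exact permutation of libraries within runs, and the window with other regions by exact sign flips within clones with at least 5 window junctions. Benjamini-Hochberg adjustment covered 11 planned tests and, separately, 11 added after seeing the data, with a threshold of 0.05. Of the planned tests, 5 compared the share of junctions in the window between genotypes, and 1 added test compared it by run. Their p-values are left out because the window was chosen on the same counts. They were kept in both adjustments, so the other adjusted p-values, and the calls gained or lost, depend on them in part. The labels call the 3 libraries of a clone biological replicates but name no separate cultures. The p-values of the comparison by run measure the spread between these libraries. Those of the sign-flip and genotype tests measure the spread between clones, with the libraries of a clone pooled. The clones are of the same cell line and are not fully independent of each other. Libraries held 3610 to 14524 junctions. Intervals are exact Clopper-Pearson 95% intervals, and upper limits for counts of 0 use 3 counts. Both cover counting error only. The sign-flip test and the genotype test in a layout of 9 clones were checked on simulated data. The test by run and the genotype layout of 8 clones were not. Alternatives were other denominators, collapsed repeat lines, other window bounds, no long gaps, no edge positions, and leaving out each library and each clone. Tests were run with scipy 1.17.1, numpy 2.4.6 and pandas 2.3.3 under Python 3.11.15. No gene is named in the window, because no mm9 annotation was used here.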

Additional observations from a re-analysis of the deposited data

Results flagged for a closer look

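The Ligase4-/- clones lay on opposite sides of WT in the share of other-chromosome junctions that fell in the window. Clone 1 differed from WT by -1.57 percentage points and clone 2 by 1.65 points, with all 3 libraries of each on its own side of all 3 WT libraries. Clone 1 minus clone 2 was -3.22 points, a difference that was not tested because the window was chosen on these counts. The libraries of clone 1 lay in 3 sequencing runs and those of clone 2 in another, and which of the clones was obtained from elsewhere is not given in the labels.

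Reads aligned outside the window held the segment in 184 cases, and no test was made of these reads as a group. Their count in Ligase4-/- clone 1 was 0 of 38298 junctions, and in WT it was 6 of 11504. The 5 aligned at Sα and the 4 on other chromosomes were among the junctions with which the window was compared.

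XLF-/- clone 1 library 1 had 1.31 window junctions per 100 Sα junctions, far from the other 5 XLF-/- libraries, which had 1.76 to 1.91. It was the only library set apart in 17 groups of 6 libraries and measures, and chance sets apart about 1 in 20. This library held 10164 junctions, against 4370 to 6884 in the other 5, and lay in a different run from libraries 2 and 3 of its clone. XLF-/- clone 2 library 1, in the same run, had 1.90. The part of depth or run was not tested.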

How the results depend on the processing

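For 16 tested results, alternatives gave 621 values: 513 kept direction and side of the adjusted threshold, 50 lost the call, 45 gained it and 13 changed sign. The cause was not tested for any of them. Leaving out a clone allows fewer splits, and each adjusted p also depends on the other tests adjusted with it. For the share in the window, described without a test, the difference from WT was 0.453 in PAXX-/- and 0.680 in XLF-/- as points of junctions outside the bait window, 0.324 and 0.450 as points of all junctions, 0.714 and 1.20 per 100 Sα junctions, and 1.48 and 2.32 per 100 deletional Sμ junctions, and XLF-/- minus PAXX-/- by run was 0.227 outside the bait window and 0.488 per 100 Sα junctions. With identical junctions collapsed, the direct share by genotype gained the call (99.3%), as did window minus Sα for microhomology (-7.11) and insertion (6.18). Without gaps over 20 bases, window minus other chromosomes became -7.88 for microhomology and 15.8 for insertion, and the insertion share by genotype lost the call (96.0%). With chromosome 14 alone as comparison the insertion difference was 1.68. Without the edge positions, the insertion difference from other chromosomes was -10.0 and gained the call, bait length lost it (3.96), window minus Sα turned to 0.895 for microhomology and -3.03 for insertion, and the insertion share by genotype lost the call (96.6%).

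Leaving out each library or clone gave, for window minus other chromosomes, -6.24 to -2.83 points for direct joints, 2.09 to 8.64 for microhomology, -3.71 to 1.85 for insertion, -18.9 to -15.1 for long gaps, 3.01 to 4.77 bases of bait and 39.1 to 40.2 points for the plus strand. For window minus Sα it gave 0.0869 to 1.95 for direct joints, -8.68 to -5.84 for microhomology, 4.92 to 7.30 for insertion and -0.250 to 1.14 for the main strand. The genotype tests ranged over 51.01% to 77.5% for the share, 97.6% to 99.6% for direct, 98.1% to 99.4% for microhomology, 95.6% to 99.5% for insertion and 91.6% to 98.6% for the median base. Against WT the share differed by 2.63 to 4.14 in XLF-/-PAXX-/-, 1.14 to 4.26 in XLF-/-, 1.34 to 1.91 in PAXX-/- and -1.57 to 1.65 in Ligase4-/-. XLF-/- minus PAXX-/- by run ranged over -0.487 to 2.63 for the share, -14.6 to -12.5 for direct and 33.5 to 38.0 for microhomology. Without a whole clone, the smallest exact p of the sign-flip tests is 0.0156, and the calls for the plus strand, long gaps and bait length then missed the adjusted threshold for every clone with members but PAXX-/- clone 1, while the differences kept their direction. The insertion share by genotype missed it without any clone with members, and the by-run differences for direct joints and microhomology also missed it without either clone of XLF-/- or PAXX-/-. Calls were gained for the direct share by genotype without any library of Ligase4-/- clone 2 or XLF-/- clone 2, XLF-/- clone 1 library 1, XLF-/-PAXX-/- clone 1 library 1 or 3, XLF-/-PAXX-/- clone 2 library 1 or 2, PAXX-/- clone 2 library 3 or WT library 2. The microhomology share and median base by genotype gained the call without 5 and 7 libraries, among them Ligase4-/- clone 2 libraries 1 and 3, XLF-/-PAXX-/- clone 1 library 3, PAXX-/- clone 2 library 3 and WT library 2, and for the median base also Ligase4-/- clone 2 library 2 and XLF-/- clone 2 library 1. Window minus Sα gained the call for microhomology and insertion without any library of Ligase4-/- clone 2, XLF-/-PAXX-/- clone 1 library 3, XLF-/-PAXX-/- clone 2 library 2, PAXX-/- clone 2 library 3 or WT library 2, and for microhomology also without XLF-/- clone 2 library 2.

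No paired analysis was possible because the library names carry no replicate number that the labels share between clones. An alternative on mapping quality was not run, because no mapping quality was used here. WT had 33 members, which limits its shares.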
